A study of Homo sapiens with 22 samples.

Results

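Regions of the histone mark H3R2me2a, asymmetric dimethylation of arginine 2 on histone H3, were examined at genes of the ubiquitin and proteasome system in NT2/D1 cells. The members were all regions whose nearest gene, as named by the authors, was a ubiquitin-specific protease (USP), a UBE2 conjugating enzyme, an F-box protein (FBXO, FBXL or FBXW) or a proteasome gene (PSMA to PSMG). Names with a hyphen were left out. This gave 83 of 8819 regions, carrying 68 of 6697 gene names. The families held 19 regions of 16 USP genes, 19 of 14 UBE2 names, 21 of 16 F-box genes and 24 of 22 PSM genes. One of the UBE2 names, UBE2V2P4, is that of a pseudogene.

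NT2/D1 is a human embryonal carcinoma line that is pluripotent and differentiates under all-trans retinoic acid (ATRA). Both libraries used here came from CRISPR/Cas9 control cells and a rat monoclonal antibody made in the authors' laboratory, one without ATRA and one after 3 days in 1 µM ATRA. They were 2 of the 22 samples of the series, and the others, which include cells deleted for the H3R2 methyltransferase PRMT6, were not analysed here. There was 1 library per condition, so no value has a replicate error, no change with ATRA was tested and no p-value was computed. Intervals are exact 95% intervals and cover counting error only. Region lists hold no expression values, so the cell line was not checked against marker levels.

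Each region belonged to 1 of 3 clusters and to the promoter or the enhancer list. Clusters I and II were deposited under the library without ATRA and cluster III under the library with ATRA. Regions carried a tagcount, the number of sequenced tags in the region. Cluster III regions also carried a separate number of tags from the peak caller MACS. Both class lists, which hold the tagcount column, were deposited under the library with ATRA, but no source used here names the library it was read in. For 202 regions of cluster I, whose MACS tags were deposited under the library without ATRA, tagcount exceeded these tags by 0 to 8 (median 3). At these regions tagcount thus tracked the tags of the library without ATRA. At the 6519 regions of cluster III the median ratio of tagcount to MACS tags was 0.486. Sequencing depth is unknown. A region carries the name of the nearest gene, which need not be the gene it acts on. Region coordinates are on hg19.

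Ubiquitin is activated by E1 enzymes, passed to a UBE2 conjugating enzyme and attached to a target with the help of a ligase. F-box proteins are the target-binding subunits of cullin-RING ligases, and USP proteins cut ubiquitin off again. Targets that carry suitable chains are unfolded by the 19S cap of the proteasome and cut in its 20S core, a stack of alpha and beta rings. Pluripotent cells are known for high proteasome activity. PRMT6 places H3R2me2a, a mark known to counteract methylation of the neighbouring lysine 4.

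The promoters of the members with high tagcount are shown because the regions described below lay mostly at gene starts. They are the 1 or 2 genes of each family with the highest tagcount that had an entry in the RefSeq promoter table (GRCh38.p14) and a RefSeq start at most 300 bp from that of the named transcript. Each run goes from 250 bases before the start through the 50 bases that follow. Their positions on GRCh38.p14 are chr12:6851900-6852199 on the plus strand for USP5, chr11:78188669-78188968 on the plus strand for USP35 and chr12:93441898-93442197 on the minus strand for UBE2N. FBXO48 is at chr2:68467245-68467544 on the minus strand, FBXL19 at chr16:30922601-30922900 on the plus strand and FBXW11 at chr5:172006589-172006888 on the minus strand. PSMC3 is at chr11:47426390-47426689 and PSMA2 at chr7:42932125-42932424, both on the minus strand. Capitals mark matches on either strand to the motifs described with the promoter composition at the end, and matches can overlap.
USP5: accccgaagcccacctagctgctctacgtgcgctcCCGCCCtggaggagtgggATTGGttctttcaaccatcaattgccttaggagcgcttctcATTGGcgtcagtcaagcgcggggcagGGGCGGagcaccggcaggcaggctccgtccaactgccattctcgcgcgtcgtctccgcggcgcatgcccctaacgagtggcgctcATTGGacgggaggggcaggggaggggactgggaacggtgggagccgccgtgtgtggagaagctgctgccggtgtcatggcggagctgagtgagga
USP35: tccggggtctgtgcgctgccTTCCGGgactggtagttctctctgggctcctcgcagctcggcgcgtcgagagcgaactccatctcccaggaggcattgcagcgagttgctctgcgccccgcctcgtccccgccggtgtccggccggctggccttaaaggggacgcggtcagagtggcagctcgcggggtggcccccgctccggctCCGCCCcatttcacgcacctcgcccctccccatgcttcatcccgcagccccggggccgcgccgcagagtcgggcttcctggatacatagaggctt
UBE2N: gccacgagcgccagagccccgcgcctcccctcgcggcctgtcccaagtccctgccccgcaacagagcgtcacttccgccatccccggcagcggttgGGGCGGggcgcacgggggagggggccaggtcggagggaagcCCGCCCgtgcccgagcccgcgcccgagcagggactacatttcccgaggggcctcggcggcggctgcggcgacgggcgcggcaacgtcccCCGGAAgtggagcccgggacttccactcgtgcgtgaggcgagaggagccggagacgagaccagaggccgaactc
FBXO48: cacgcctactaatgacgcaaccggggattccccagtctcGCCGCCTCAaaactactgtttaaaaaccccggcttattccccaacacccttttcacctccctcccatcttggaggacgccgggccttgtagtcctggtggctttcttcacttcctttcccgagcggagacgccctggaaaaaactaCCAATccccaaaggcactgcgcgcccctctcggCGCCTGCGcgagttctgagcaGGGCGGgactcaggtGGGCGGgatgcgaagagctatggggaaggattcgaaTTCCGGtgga
FBXL19: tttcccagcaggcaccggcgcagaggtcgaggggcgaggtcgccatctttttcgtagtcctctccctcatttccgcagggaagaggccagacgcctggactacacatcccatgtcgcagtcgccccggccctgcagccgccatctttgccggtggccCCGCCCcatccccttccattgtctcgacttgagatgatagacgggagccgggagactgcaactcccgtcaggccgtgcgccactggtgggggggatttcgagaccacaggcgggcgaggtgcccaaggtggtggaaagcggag
FBXW11: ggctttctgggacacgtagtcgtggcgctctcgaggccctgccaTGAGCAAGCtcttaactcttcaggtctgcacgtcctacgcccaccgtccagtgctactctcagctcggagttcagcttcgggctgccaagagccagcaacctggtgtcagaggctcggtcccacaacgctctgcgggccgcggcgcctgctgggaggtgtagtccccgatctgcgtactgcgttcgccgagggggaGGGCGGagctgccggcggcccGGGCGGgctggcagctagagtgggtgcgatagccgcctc
PSMC3: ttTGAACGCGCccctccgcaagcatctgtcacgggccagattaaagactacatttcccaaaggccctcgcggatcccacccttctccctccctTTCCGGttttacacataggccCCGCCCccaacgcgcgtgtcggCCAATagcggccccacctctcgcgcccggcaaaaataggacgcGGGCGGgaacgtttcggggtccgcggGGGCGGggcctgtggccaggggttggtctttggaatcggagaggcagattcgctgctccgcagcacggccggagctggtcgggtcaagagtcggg
PSMA2: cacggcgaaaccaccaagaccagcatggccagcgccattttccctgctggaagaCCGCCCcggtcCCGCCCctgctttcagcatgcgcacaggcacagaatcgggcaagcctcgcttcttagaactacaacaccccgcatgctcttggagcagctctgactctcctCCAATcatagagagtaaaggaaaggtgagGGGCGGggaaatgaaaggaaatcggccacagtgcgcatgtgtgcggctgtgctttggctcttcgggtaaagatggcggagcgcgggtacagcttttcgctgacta

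Member regions were mostly at promoters. The promoter list held 71 of the 83 (85.5%, 76.1 to 92.3), against 48% of all regions. The authors' window around transcript starts held 69 (83.1%, 73.3 to 90.5), against 53.3% of all regions. Cluster II held 34 (41.0%, 30.3 to 52.3), against 23.8%, and cluster III held 49 (59.0%, 47.7 to 69.7), against 73.9%. Cluster I held none of the 83, against 2.29% of all regions and 0.590% of promoter-class regions. A count of 0 allows a share of up to 3.61% (3 counts of the total), and the exact 95% interval reaches 4.35%. Within the promoter list alone, 32 of 71 member regions were in cluster II (45.1%, 33.2 to 57.3), against 35.5% of all promoter-class regions, a value inside the members' interval. Within 100 bp of a start lay 43 of the 71 (60.6%), against 59.3% of all promoter-class regions.

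By family, all 9 FBXO and all 4 FBXW regions were in the promoter list, as were 22 of 24 PSM, 17 of 19 USP and 7 of 8 FBXL regions. Only 12 of 19 UBE2 regions (63.2%, 38.4 to 83.7) were, and 4 of the 7 UBE2 exceptions belonged to 1 gene, UBE2G2. The cluster II share ran from 25% in FBXW (1 of 4, 0.631 to 80.6) and 31.6% in UBE2 (12.6 to 56.6) to 50% in PSM (29.1 to 70.9) and 55.6% in FBXO (21.2 to 86.3). The intervals of all 6 families overlapped. Within the promoter list the cluster II share was 25% in FBXW, 28.6% in FBXL, 41.2% in USP and 41.7% in UBE2. It was 54.55% in PSM and 55.6% in FBXO. The 35.5% over all promoter-class regions lies inside the exact interval of each family.

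**Figure D1:**
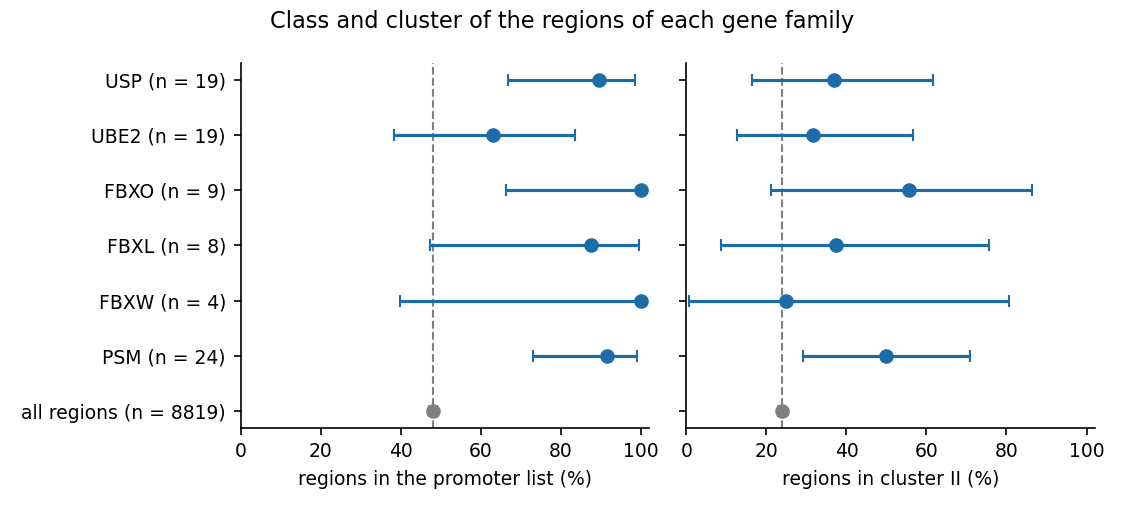
Share of regions in the promoter list (left) and in cluster II (right), in percent, for each gene family and for all regions. Points are shares, bars exact 95% binomial intervals and dashed lines the value over all regions (48% and 23.8%). The 6 families lie to the right of the dashed line in both panels, with wide bars. The lines cover promoter-class and enhancer-class regions together. Over promoter-class regions alone the cluster II share was 35.5%.

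Counted by gene, 67 of 198 protein-coding genes of these families (33.8%, 27.3 to 40.9) were named by a region, against 22.3% of 20056 protein-coding genes in RefSeq. Of all 6697 names 5275 matched a RefSeq gene, and of the 68 member names 67 matched a protein-coding one. Genes under names without a match count as not named, so the 22.3% can be too low. The PSM genes had the highest count, 22 of 48 (45.8%, 31.4 to 60.8). UBE2 genes had 13 of 36 (36.1%, 20.8 to 53.8) and USP genes 16 of 51 (31.4%, 19.1 to 45.9). Of F-box genes 16 of 63 were named (25.4%, 15.3 to 37.9), made up of 4 of 10 FBXW (40%, 12.2 to 73.8), 4 of 17 FBXL (23.5%) and 8 of 36 FBXO genes (22.2%). All but 2 of the 67 genes had a promoter-class region, and the exceptions were USP20 and UBE2T.

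Among deubiquitinases the USP5 promoter stood far above the rest. USP5, which takes apart free ubiquitin chains, had a tagcount of 1190 (1123 to 1260) in a cluster II region 1391 bp wide (chromosome 12, 6961141 to 6962531). This was the highest of the 4225 promoter-class regions on placed chromosomes, and it was 856 tags per kb of region. Promoter-class regions on unplaced contigs reached 3527. USP48 followed with 216 (188 to 247, chromosome 1, 22109727 to 22110483), or 285 per kb. USP35 had 144 (121 to 169.5, chromosome 11, 77899464 to 77900106) and USP21, a histone H2A deubiquitinase, had 85 (67.9 to 105). These 4 regions and those of USP30, USP40 and USP39 made up cluster II in this family. USP30, which sits on the outer mitochondrial membrane, had 71 tags, USP40 had 54, and USP39, a splicing protein without protease activity, had 52.

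The remaining USP regions were in cluster III, with tagcounts from 15 to 69. By MACS tags the strongest was USP16, another H2A deubiquitinase, with 113 (93.1 to 136) and a tagcount of 69. USP20 followed with 91 MACS tags and a tagcount of 15, in an exon 4962 bp upstream of a start (chromosome 9, 132625276 to 132625899). USP3, which acts on ubiquitinated histones, had 79 MACS tags at its start and 35 in a second region 1036 bp upstream. USP1, which deubiquitinates FANCD2 and PCNA, had 50 MACS tags at its start and 40 in an intergenic region 35082 bp upstream. The others were the start regions of USP31 (72 MACS tags), USP9X (68), USP36 (56), USP42 (41), a further start of USP39 (39) and USP44 (34).

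F-box genes held the next strongest regions. FBXL19, whose product binds unmethylated CpG-rich DNA through a CXXC domain, had a promoter region with tagcount 770 (717 to 826, chromosome 16, 30933475 to 30935084), the fourth highest of its class on placed chromosomes. A second cluster II region lay in an exon 2189 bp downstream of a start, with 201 (174 to 231), and ranked 29 among the 4572 enhancer-class regions on placed chromosomes. FBXW11, the beta-TrCP paralog that recognises phosphorylated beta-catenin, had 181 (156 to 209, chromosome 5, 171433412 to 171434067). FBXO48 had 126 (105 to 150) and FBXO46 had 99 (80.5 to 120.5) at a start and 55 in an intron. Of the other FBXO genes, FBXO9 (40) and FBXO28 (39) were also in cluster II.

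FBXL14, known for targeting SNAI1 for degradation, was named by 4 promoter-class regions within 16290 bp on chromosome 12. The widest (2616 bp, 1698421 to 1701036) had 289 MACS tags (257 to 324) and a tagcount of 212, or 81.0 per kb. The others had 118 and 44 MACS tags in cluster III, and a tagcount of 53 in cluster II at an intronic position 11106 bp upstream of the start. FBXL14 and USP5 lie on the short arm of chromosome 12, below 36 Mb, which held 5 of the 83 member regions (6.02%) and 7.26% of all regions. Cluster III start regions of other F-box genes were weaker, with 108 MACS tags at FBXO31, 64 at FBXO16, 51 at FBXO41, 50 each at FBXL15 and FBXW2, and 34 to 49 at FBXL18, FBXW9, FBXO33 and FBXW5.

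**Figure D2:**
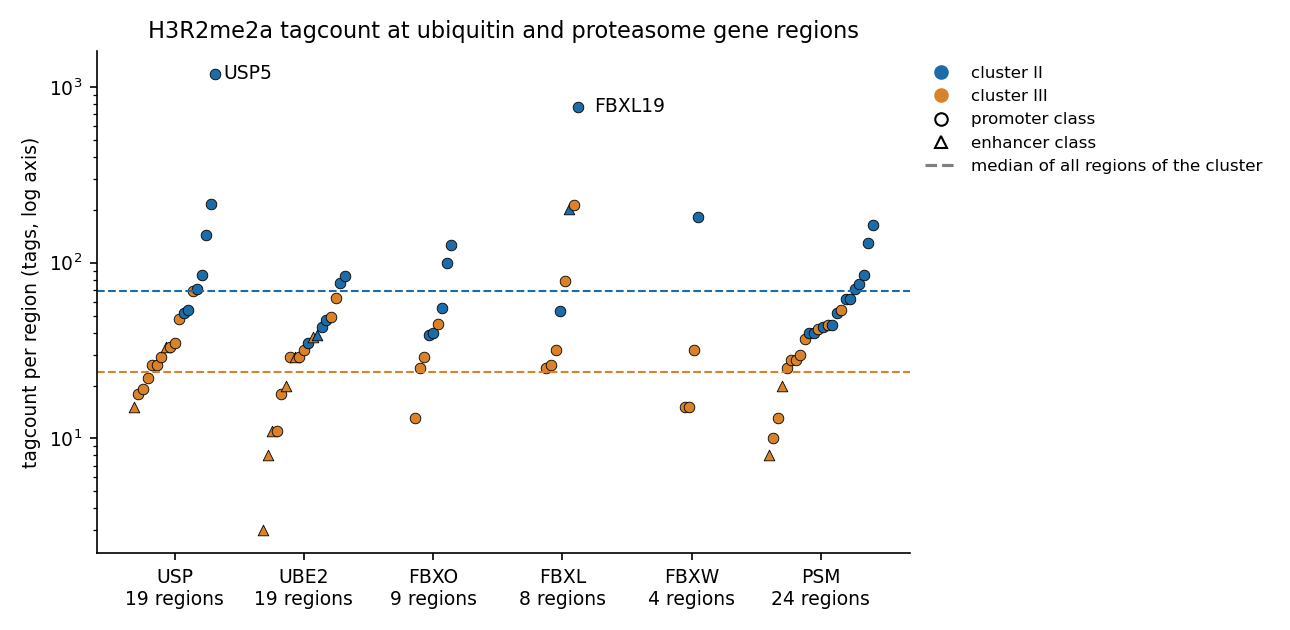
Tagcount of each of the 83 member regions (log axis) by family, ordered within a family. Colour gives the cluster, circles are promoter-class and triangles enhancer-class regions, and dashed lines are the medians of all regions of clusters II (69) and III (24). USP5 (1190) and FBXL19 (770) stand apart, and every other region is at 216 or lower. Tagcounts of cluster II start at 35 over all regions.

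UBE2 regions were weaker. The highest tagcounts in this family were 84 (67.0 to 104) at UBE2V1 and 77 (60.8 to 96.2) at UBE2N. Their products form the dimer that builds chains through lysine 63 of ubiquitin. The start of UBE2V2, whose product is the other partner of UBE2N, was in cluster III with a tagcount of 32 and 46 MACS tags. The start regions of UBE2B (47) and UBE2D1 (35) were also in cluster II. In cluster III the start of UBE2Q1 had 110 MACS tags (90.4 to 133) and a tagcount of 63. Start regions of UBE2R2 (61 MACS tags), UBE2J2 (40), UBE2D3 (39) and UBE2S (34), which extends chains for the anaphase-promoting complex, were lower. The UBE2T region lay in an exon 28299 bp downstream of a start, with 45 MACS tags. The intronic region named for the pseudogene UBE2V2P4 had 63 MACS tags and a tagcount of 20. A second UBE2N region, in an exon 7858 bp downstream of a start, had 40 MACS tags and a tagcount of 29.

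UBE2G2, which acts in degradation of misfolded proteins of the endoplasmic reticulum, was named by 5 regions spread over 57100 bp of chromosome 21. Its start region (46221403 to 46222081) had 115 MACS tags (94.9 to 138) and a tagcount of 49. An exonic cluster II region 1607 bp downstream of a start had a tagcount of 39. A group of 3 intergenic regions lay 26587 to 30240 bp downstream of a start, with 60, 33 and 43 MACS tags and tagcounts of 38, 3 and 8. The lowest tagcount among the members, 3 (0.619 to 8.77), was one of these.

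Of 68 member names 10 had 2 or more regions (14.7%), a share near the 18.1% of all 6697 names. Besides UBE2G2 and FBXL14, the pairs were those of USP1, USP3, USP39, UBE2N, FBXL19, FBXO46, PSMB2 and PSMD6. In USP39, UBE2N, FBXL14 and UBE2G2 the regions fell into both clusters II and III. At USP39 and UBE2N the cluster II region had the higher tagcount (52 against 26, and 77 against 29). No cluster II region of the series was below 35. At FBXL14 and UBE2G2 the highest tagcount belonged to a cluster III region.

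**Figure D3:**
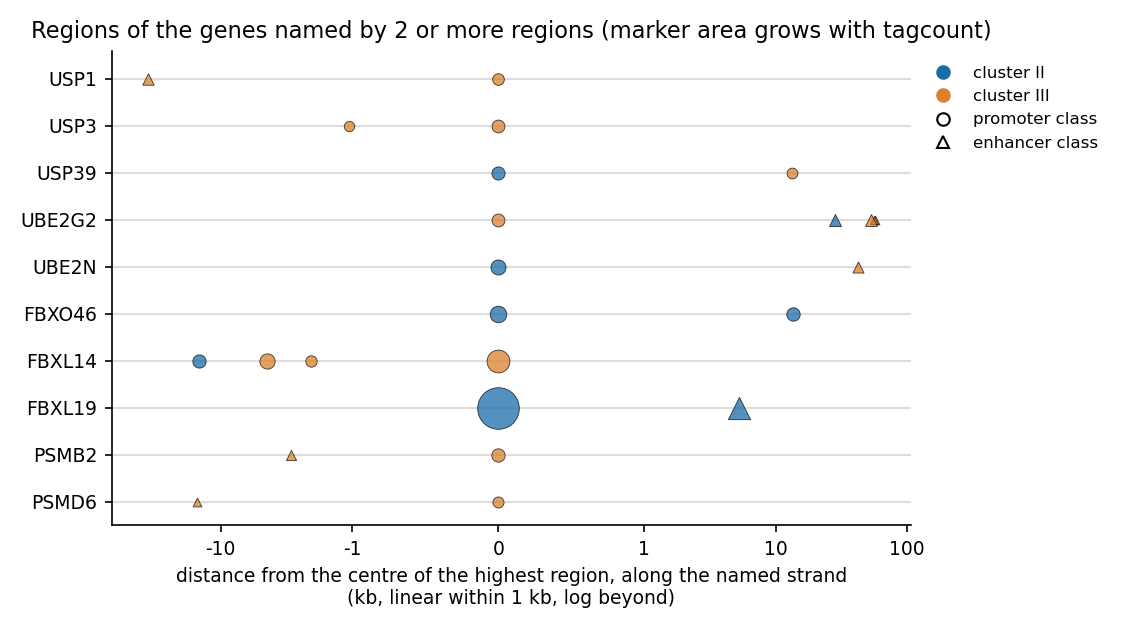
Regions of the 10 genes named by 2 or more regions, placed by distance in kb from the centre of the region with the highest tagcount, along the strand of the named transcript (linear within 1 kb, log beyond). Colour gives the cluster, circles are promoter-class and triangles enhancer-class regions, and marker area grows with tagcount. The UBE2G2 regions reach 56.5 kb from its start region.

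Proteasome genes were counted by part of the particle, beside the 22.3% of all protein-coding genes that were named. Of the 7 constitutive beta ring genes 6 were named, with PSMB1 the exception. Of the 11 non-ATPase genes of the 19S cap 7 were named, of the 6 ATPase genes 3 and of the 8 alpha ring genes 3. None of the 4 immune and thymic beta genes (PSMB8, PSMB9, PSMB10 and PSMB11) was named, and none of the 4 PSME activator genes. These groups are small. The exact interval was 42.1 to 99.6% for 6 of 7, 30.8 to 89.1% for 7 of 11 and 0 to 60.2% for 0 of 4, and these intervals overlap.

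In the 20S core the alpha ring gene PSMA2 had the highest tagcount, 130 (109 to 154, chromosome 7, 42971484 to 42972374), in cluster II. PSMA1 (28) and PSMA5 (25) were in cluster III, with 42 and 32 MACS tags. Of the beta genes that carry the active sites, PSMB5, the chymotrypsin-like subunit, had 76 (59.9 to 95.1) and PSMB7, the trypsin-like one, had 40 (28.6 to 54.5), both in cluster II. PSMB6, the caspase-like subunit, had 30 (20.2 to 42.8) in cluster III. The intervals of PSMB6 and PSMB7 overlapped and that of PSMB5 lay above both. Because cluster II tagcounts start at 35, the place of PSMB6 below PSMB7 and PSMB5 partly restates their clusters. Per kb of region the tagcounts were closer, 116 at PSMB5, 96.4 at PSMB7 and 79.2 at PSMB6. Of the beta genes without active sites, PSMB4 had 62 in cluster II. PSMB2 had 54 at its start in cluster III and 20 in a region 2617 bp upstream, and PSMB3 had 10.

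In the 19S cap the ATPase gene PSMC3 had the highest tagcount of all proteasome genes, 163 (139 to 190, chromosome 11, 47447587 to 47448568), in cluster II. PSMC5 had 43 in cluster II and PSMC4 had 44 in cluster III, with 98 MACS tags (79.6 to 119), the most of the 12 proteasome regions in cluster III. Cluster II regions carry no MACS tags. The scaffold subunit genes PSMD1 (85) and PSMD2 (62), PSMD11 (71), PSMD3 (52) and the ubiquitin receptor gene PSMD4 (44) were all in cluster II. PSMD6 (28) and PSMD12 (13) were in cluster III. A second PSMD6 region lay in intergenic sequence 14571 bp upstream, with a tagcount of 8 and 39 MACS tags. No region was named for PSMD14, the cap's deubiquitinase. Outside the particle, PSMF1, a proteasome inhibitor gene, had 40 in cluster II. The assembly chaperone genes PSMD9 and PSMG1 had 42 and 37 in cluster III.

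**Figure D4:**
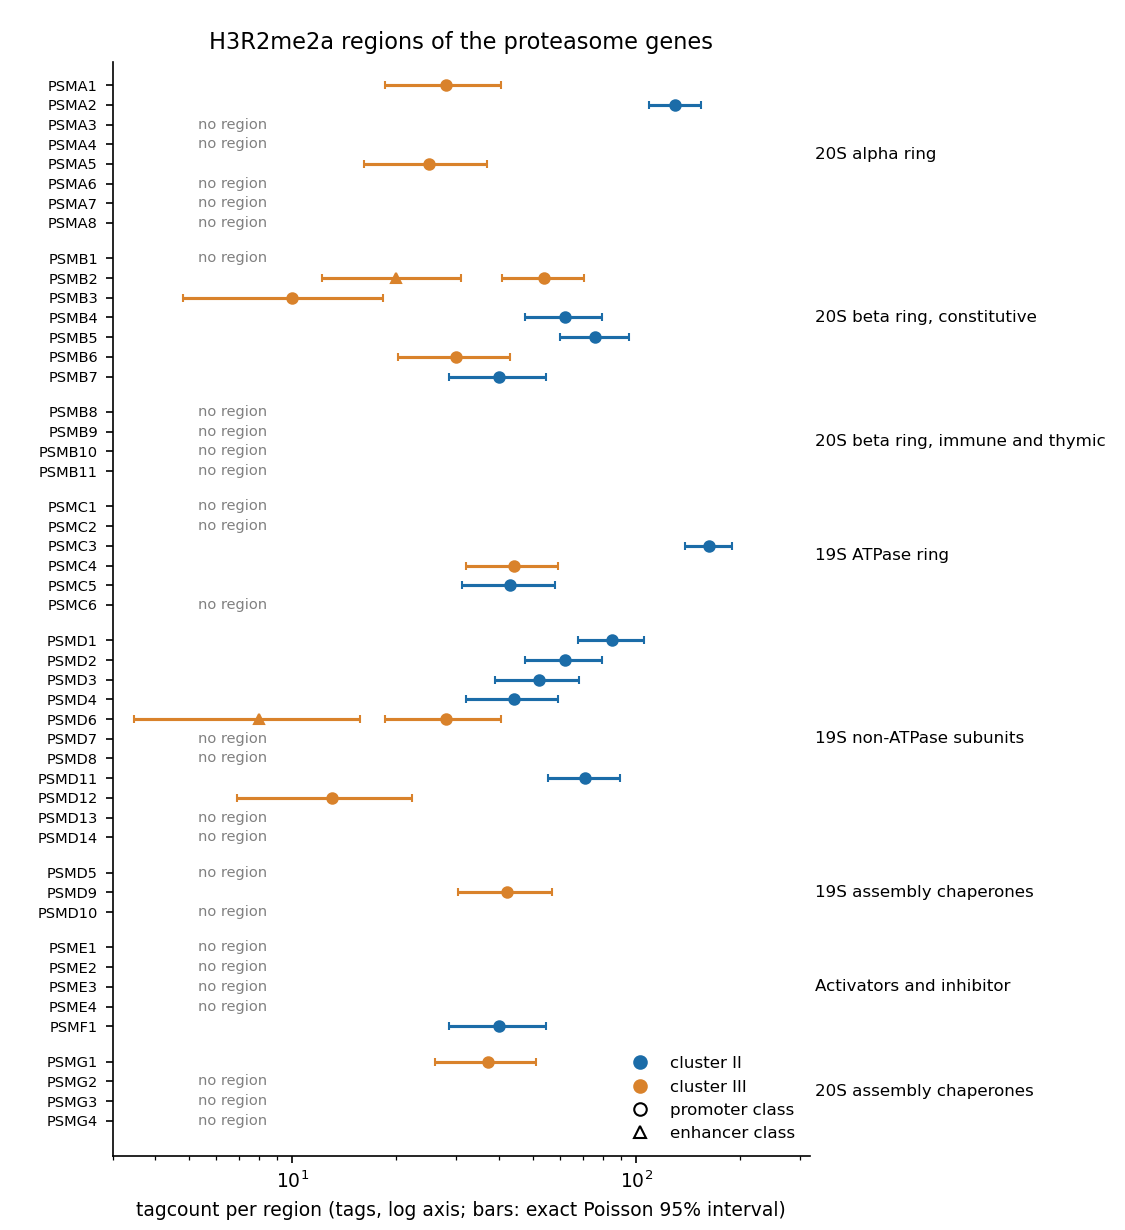
Tagcount (log axis) of each region of the 48 proteasome genes, grouped by part of the particle, with exact Poisson 95% intervals. Colour gives the cluster, circles are promoter-class and triangles enhancer-class regions, and genes without a region are marked. PSMC3 (163) and PSMA2 (130) are highest, and the immune beta and PSME genes have no region.

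Apart from the few strong promoters, levels resembled those of other regions of the same cluster and class. In cluster II the 32 promoter-class members had a median tagcount of 66.5, against 74 over all 1503, and 14 of 32 lay above 74. In cluster III the 39 promoter-class members had a median of 29, against 30 over all 2708, and a median of 50 MACS tags, against 52. Over all member regions the median tagcount was 39 (32 to 45), against 32 over all regions. Median widths were 521 and 513 bp.

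Cluster III carries both tag columns, so they were compared there. Tagcount was at most 0.5 of the MACS tags at 24 of 49 member regions (49.0%, 34.4 to 63.7), against 53.5% of all cluster III regions. In the promoter class this held for 17 of 39 (43.6%, 27.8 to 60.4), against 35.2%, and in the enhancer class for 7 of 10 (70%, 34.8 to 93.3), against 66.5%. Each background value lies inside the members' interval. The median ratio was 0.529 among the members and 0.486 over all cluster III regions. Because the depths are unknown and cluster III was deposited under the library with ATRA, the ratio is no measure of change with ATRA by itself.

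Single regions spread widely around this median. The lowest ratios were 0.0909 and 0.186 at intergenic UBE2G2 regions and 0.165 at USP20. Among start regions the lowest were those of PSMD12 (0.25, from 13 and 52 tags) and FBXW2 (0.3, from 15 and 50). The highest were 0.825 at the distal USP1 region, 0.882 at PSMB6 and 1.32 at PSMG1. PSMG1 was the 1 member region with more tagcount (37, 26.1 to 51.0) than MACS tags (28, 18.6 to 40.5), and these intervals overlap. Over all cluster III regions 1.27% had a ratio above 1.

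**Figure D5:**
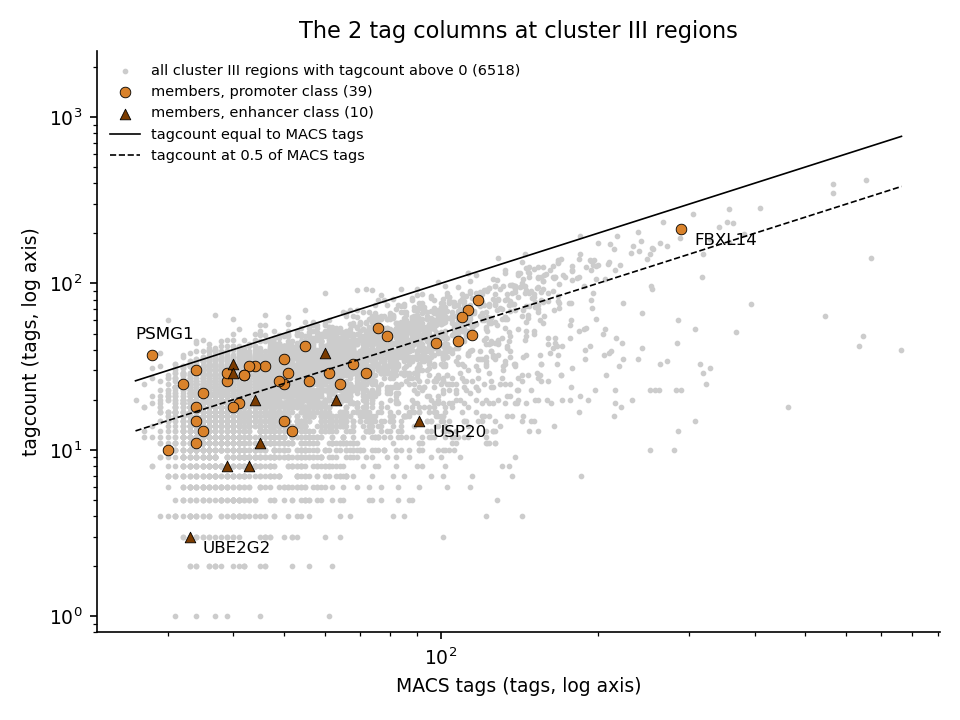
Tagcount against MACS tags (both log axes) at cluster III regions. Grey points are all regions with a tagcount above 0, circles the 39 promoter-class and triangles the 10 enhancer-class members, and lines mark equality and a ratio of 0.5. The members lie within the grey cloud, with PSMG1 above the line of equality and a UBE2G2 region at a tagcount of 3.

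Other genes of the ubiquitin system were counted in the same way. In 7 lists of them, 48 of 130 genes were named (36.9%, 28.6 to 45.8), against 22.3% of all protein-coding genes. Among ubiquitin genes RPS27A had a promoter region with a tagcount of 150 in cluster II, and UBB had one with 43 in cluster III. The E1 gene UBA1 had 108 in cluster II. Among cullin-RING genes CAND1, an exchange factor of these ligases, had 269 and BTRC, the paralog of FBXW11, had 222. Of the other deubiquitinases 11 of 29 were named (37.9%, 20.7 to 57.7), an interval that holds 22.3%. They were led by VCPIP1 (410) and JOSD2 (112).

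Of the COP9 signalosome, which takes NEDD8 off cullins, 5 of 9 genes were named (55.6%, 21.2 to 86.3), with COPS7B at 275 and COPS7A at 111. The anaphase-promoting complex had 7 of 16 (43.75%, 19.75 to 70.1), led by CDC26 (119) and ANAPC5 (65). HECT ligases had 6 of 28 (21.4%, 8.30 to 40.95), close to the value over all genes, with TRIP12 (56) first. The 22.3% of all protein-coding genes lies inside each of these intervals. Proteasome partners, a list of shuttle, assembly, p97 and transcription factors, had 8 of 17 genes named (47.1%, 23.0 to 72.2). They had 11 regions, all 11 in cluster III, against 73.9% of all regions, with UBQLN1 (49) first. RAD23B, a shuttle that carries ubiquitinated proteins to the proteasome, had 4 of these.

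Start regions can belong to a pair of genes. On GRCh38, where both annotations lie, 10 of 62 members with a promoter-class region within 1000 bp of a start (16.1%, 8.02 to 27.7) had a protein-coding start on the opposite strand within 1000 bp, against 20.2% of 3000 protein-coding genes with such a region. They were USP5 (with CDCA3, 867 bp apart), USP35 (KCTD21), PSMA2 (MRPL32), FBXO48 (APLF), USP39 (TMEM150A), UBE2B (CDKL3), FBXO31 (MAP1LC3B), PSMC5 (FTSJ3), FBXL15 (PSD) and FBXW5 (C8G). At these a tagcount may not belong to the named gene alone. Where the starts lie far apart, as at FBXL15 (907 bp), the region (387 bp wide) may hold only 1 of them. Of the 10, 7 were in cluster II (70%), against 270 of 606 (44.6%) over all genes with such a start. Of all 62 such members 30 were in cluster II, against 1140 of the 3000 genes. The 10 are few, and no interval was computed for their share. The side on which the opposite start lay was not checked. One of the 7 was PSMC5, whose overlapping second interval the authors named FTSJ3.

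Member promoters were rich in GC, like those of other genes with a region at the start. RefSeq promoters were found for 48 of the 65 members with a promoter-class region within 1000 bp of a start. The limit of 300 bp on RefSeq starts was not applied to these. In 45 members the RefSeq and named starts could be compared. They lay a median of 6 bp and at most 41329 bp apart, so a window need not be the promoter at the region. The median GC content of the 48 promoters was 65% with 25.5 CpG pairs per 300 bases. The 2589 promoters of all genes with such a region had 63.7% and 25, and all 27305 promoters of the table had 58.3% and 14. The Sp1-type motif GGGCGG was found in 36 of 48 (75%, 60.4 to 86.4), against 66.7% of promoters with such a region and 44.6% of all. The ETS-type motif CCGGAA was found in 19 (39.6%), against 38.1% and 17.6%.

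The motif CGCNTGCG, the centre of the site of nuclear respiratory factor 1, was found in 17 of 48 members (35.4%, 22.2 to 50.5), against 20.4% of promoters with such a region and 10.6% of all. It was found in 5 of 8 UBE2 promoters. These include UBE2V1 and UBE2D3, whose RefSeq starts lay 2809 and 41329 bp from the named starts. The motif TGANNNNGC, the type of site read by NFE2L1, a factor known to activate proteasome genes, was found in 23 of 48 (47.9%), against 41.7% and 42.1%. Among PSM promoters it was found in 12 of 19 (63.2%, 38.4 to 83.7), PSMC3, PSMB5 and PSMD1 among them, and not in the PSMA2 window. CCAAT was found in 19 (39.6%), against 34.7% and 35.7%, and USP5 held 3 such matches, all on the opposite strand. TATAAA was found in 4 (8.33%), against 4.91% and 11.95%. The nuclear receptor half-site AGGTCA was found in 4 (8.33%), against 10.2% and 13.9%. All searches covered both strands.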

How the data were processed

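H3R2me2a chromatin immunoprecipitation libraries of control NT2/D1 cells, 1 without and 1 with ATRA, were used. The submitters' processing notes name bcl2fastq, Bowtie2, MACS 1.4 and deepTools on hg19, with no role or order. Per the file headers, the values the authors deposited are tag counts per region, called MACS tags for clusters I and III and tagcount for the promoter and enhancer lists. All are whole numbers, and no scaling is stated. No source used here gives the depth, the background library for MACS, or how clusters and classes were set.

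Lists were joined on chromosome, start and stop with Python 3.11.15, pandas 2.3.3 and SciPy 1.17.1. Clopper-Pearson intervals accompany shares, Poisson intervals tag counts, and order-statistic intervals medians. The intervals and the motif search were tested on simulated data, and the name rule on a set of known names. Positive distances are downstream of a start, and the point they are measured from is uncertain by about 100 bp. GENCODE 44 and RefSeq supplied names, neighbours and promoters on GRCh38 only, whose coordinates were never compared with the regions.

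The members and gene lists were chosen with earlier results of these data known. Genes described with values are the 4 of each family with the highest tagcount, the 3 with most cluster III MACS tags, those with 2 or more regions, the 3 strongest enhancer-class regions by tagcount, and the 3 lowest and 3 highest ratios. Other members are listed, and so are leading genes of the other lists, except for some genes that are not reported here. The limit of 300 bp on RefSeq starts was added after seeing the data, and it replaced UBE2V1 by UBE2N among the printed promoters.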

Additional observations from a re-analysis of the deposited data

How the results depend on the processing

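Recomputed under other choices of regions and thresholds were the shares in the promoter list, the start window and clusters II and III. The median tagcount, the share at a ratio of at most 0.5 and the gene counts were recomputed too. Of 38 values 29 moved little (shares and medians inside the reported 95% interval, gene counts close to those reported). Some settings fix the outcome in advance, so this tally is no measure of robustness. Restricting to regions within 1000 bp of a start put 100% of member regions in the promoter list, against 87.5% of all such regions, and 100% in a start window, which held for all such regions. With 1 region per gene both shares were 95.6%, against 55.6% and 61.2% over all regions. With regions below their list's median tagcount left out, the cluster II share was 71.1%, the cluster III share 28.9% and the median tagcount 62, against 44.4%, 51.2% and 50 over all regions. Tagcounts start at 35 in cluster II and have a median of 24 in cluster III. Such a cut therefore removes mostly cluster III regions, so these shifts follow from the cut and are no finding about the members. The median per kb of width was 71.1 tags, against 58.0. It was counted as moved, but its unit differs from that of the interval of the median tagcount. A ratio of tagcount to MACS tags of at most 0.3333 was also used in place of 0.5. It was met by 20.4% of member regions of cluster III, against 27.8% of all. A stricter limit can only lower this share. Leaving out the short arm of chromosome 12 moved no value beyond its interval. No paired analysis was possible because there was 1 library per condition and no test. Unknown depth and single libraries limit every comparison of tag counts between columns.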

Other observations

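Cluster II regions carry a second, overlapping interval whose library no source used here names. For the members it was wider than the first at 30 of 34 regions (88.2%), against 84.9% of all cluster II regions, and it held the whole first interval at 28 of 34 (82.4%), against 60.6%. The median ratio of widths was 1.41 among the members and 1.29 over all cluster II regions. These backgrounds were not matched by class. Promoter class made up 32 of the 34 member regions and 1503 of all 2098. Over these 1503 the median second and first widths were 751 and 537 bp, against 714.5 and 525 bp at the 32. Over enhancer-class regions of cluster II they were 587 and 482 bp. At USP5 the second interval was 2341 bp wide and at FBXL19 2145 bp. The gene name differed between the intervals at 1 member, PSMC5.

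A number of regions carried similar names outside the rule. They were 6 regions, all in cluster III, named USPL1 (tagcount 35), USP27X-AS1 (32), PSMG3-AS1 (30), PSMC1P9 (23), PSMC1P12 (15) and PSMC1P5 (5), of which the last 3 names are those of PSMC1 pseudogenes.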
